A study of Zea mays with 18 samples.

Results

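The response of maize seedlings to epibrassinolide (EBL) was compared between primary roots and the 1st leaf. A gene model belongs to the set described here when its EBL effect in roots and its EBL effect in leaves differed by 1 or more. An effect is the log2 ratio of the EBL value to the control value after adding 1 RPKM to each, so a difference of 1 is a 2-fold difference between the organs. Gene models were compared when all 4 root and leaf values were above 0, which held for 29003 of the 43484 gene models in the table. Of these, 1972 differed by 1 or more, or 6.8%, and they are called the members below. Since the effects themselves chose the members, their effects are given as a description, with nothing tested.

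Seedlings of the inbred line B73 were germinated in the dark for 3 days and then grown in nutrient solution. The 4 groups are EBL-treated roots, control roots, EBL-treated leaves and control leaves, with 3 biological replicates in each, 12 of the 18 samples of the series. EBL was given at 1 nM for 48 h. Shoots (stem, apex and coleoptile) from the same treatments serve below as an organ that the choice of members did not use. The polyA RNA values are RPKM, reads scaled to transcript length and library size. The table holds 1 value per group for its 3 replicates, so no value has a replicate error, no test of a difference was possible, and the depth is unknown. The gene models made up 91.9% of the summed RPKM in EBL roots and 94.3% in control roots, and 78.6% in EBL leaves and 78.4% in control leaves. Their summed RPKM was unequal in leaves, at 1256990 with EBL and 1006950 in control. In roots it was 884593 with EBL and 898381 in control.

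Brassinosteroids are plant steroid hormones. They bind the receptor kinase BRI1 at the cell surface, which leads to inhibition of the kinase BIN2 and lets transcription factors of the BZR1 family act on their target genes. They are known for promoting cell elongation, and in roots for effects that depend on dose. In leaves they act on blade growth, leaf angle and the development of photosynthetic tissue.

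None of the 29003 gene models could be paired with a gene name, because the RefSeq gene table at hand covers another assembly and matched 0 of them. The 39 gene lists drawn up for hormone pathways, cell walls, photosynthesis, stress and organ markers therefore had 0 members, and the organ labels could not be checked against marker genes. Identifiers stand in for names, and gene models are grouped by the organ in which EBL and control differed and by the organ in which the transcript was abundant.

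The higher effect lay more often in leaves. It lay in roots for 404 members, 1.39% of the gene models compared, and in leaves for 1568, or 5.41%. The imbalance between these directions depended on the scaling of the columns. The counts for roots and leaves were 323 and 2030 after median-ratio scaling, and 424 and 1398 after quantile normalization. When the gene models of each column were scaled to the same sum, 912 had the higher effect in roots and 846 in leaves. That scaling moved the median root minus leaf effect of all gene models by 0.20. It was 0.26 after that scaling and 0.05 as the authors scaled the values. Counted relative to the median, the numbers were 377 and 1468 under that scaling, and 336 and 1755 as the authors scaled the values. All 404 members with the higher root effect were still found after scaling to the sum, and 845 of the 1568 with the higher leaf effect (53.9%).

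**Figure D1:**
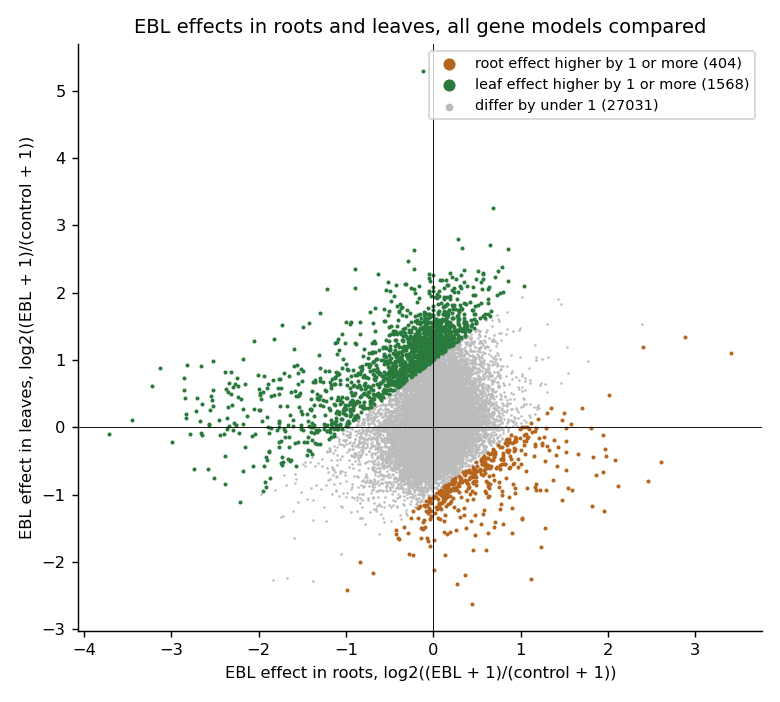
The EBL effect in roots (horizontal axis, log2) is plotted against the EBL effect in leaves (vertical axis, log2) for each gene model compared. Brown points are the 404 gene models with the higher root effect, green points the 1568 with the higher leaf effect, and grey points those that differed by under 1. The green points spread both upward (higher in EBL leaves) and to the left (lower in EBL roots).

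Across all gene models the effects were narrower in roots, with an interquartile range of 0.26 (log2), than in leaves, with 0.47. Members with the higher root effect had a median effect of 0.55 in roots and -0.80 in leaves. Members with the higher leaf effect had a median effect of -0.26 in roots and 1.06 in leaves. The effects had opposite signs for 342 of the 404 and for 1101 of the 1568, against 13278 of all 29003 gene models compared. The rule itself favours opposite signs, since effects that oppose each other differ more easily by 1. The leaf effect was the larger in size for 240 of the 404 members (59.4%) and for 1170 of the 1568 (74.6%), against 63.4% of all gene models compared.

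Most differences were under 1.5 in size: 191 of the members with the higher root effect and 779 with the higher leaf effect lay between 1.1 and 1.5. Of the members with the higher root effect, 108 differed by 1 to 1.1 and 6 by 3 or more, and of those with the higher leaf effect 259 and 24 did. Just outside, at 0.9 to 1, stood 499 gene models, and just inside, at 1 to 1.1, stood 367. The member nearest the limit with the higher root effect, Zm00001d053960, had effects of 0.15 in roots and -0.85 in leaves. Zm00001d039563, next to it on the other side, had 0.58 and -0.42. On the leaf side the nearest member was Zm00001d012988, with effects of 0.11 in roots and 1.11 in leaves, and the nearest gene model left out was Zm00001d013034, with -0.04 and 0.96.

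The members with the higher leaf effect fell into 3 main patterns. In 824 of them (52.6%) the value was at least 2-fold higher in EBL leaves while roots stayed under 2-fold. In 271 (17.3%) EBL roots stood lower by 2-fold or more while leaves stayed under 2-fold. In 452 (28.8%) neither organ passed 2-fold, which a difference of 1 or more allows only when the effects have opposite signs. A further 19 passed 2-fold in both organs, lower in EBL roots and higher in EBL leaves. Over all gene models compared, the share lower by 2-fold or more in EBL roots was 1.32%, and the share higher by 2-fold or more in EBL leaves was 4.12%. These patterns describe the values that chose the members.

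In the 824 members higher in EBL leaves, the median value was 7.56 RPKM in EBL roots and 7.34 in control roots, and 20.8 RPKM in EBL leaves and 6.66 in control leaves. Only the leaf columns stood apart in these medians. Zm00001d001075 had the largest difference of all, at -5.42 (root minus leaf, log2). It stood at 33.1 RPKM in EBL roots and 36.1 in control roots, at 113 in EBL leaves and 1.89 in control leaves, and at 64.1 in EBL shoots and 0.151 in control shoots. The transcript was thus present in roots under both conditions and low in leaves and shoots without EBL. Zm00001d010022 stood at 11.2 RPKM in EBL roots and 21.7 in control roots, and at 41.9 in EBL leaves and 7.38 in control leaves. Its shoot values, 53.9 RPKM in EBL and 7.44 in control, were close to those in leaves.

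The 271 members lower in EBL roots had high leaf levels in the median and varied among themselves. Their median was 3.61 RPKM in EBL roots and 14.8 in control roots, and 350 RPKM in EBL leaves and 270 in control leaves. At least 8-fold higher levels in leaves than in roots, taking the mean of the EBL and control log2 values, were found for 151 of them (55.7%), against 4.75% of all gene models compared. A further 23 (8.49%) were at least 8-fold higher in roots, against 3.91%. Zm00001d044399 stood at 2.17 RPKM in EBL roots and 26.7 in control roots, and at 3812 in EBL leaves and 2061 in control leaves. Zm00001d044396 stood at 1.30 and 20.4 RPKM in EBL and control roots, and at 3739 and 2447 in EBL and control leaves. The root values of both were a small fraction of their leaf values. In shoots Zm00001d044399 stood at 77.6 RPKM in EBL and 73.6 in control, between roots and leaves.

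**Figure D2:**
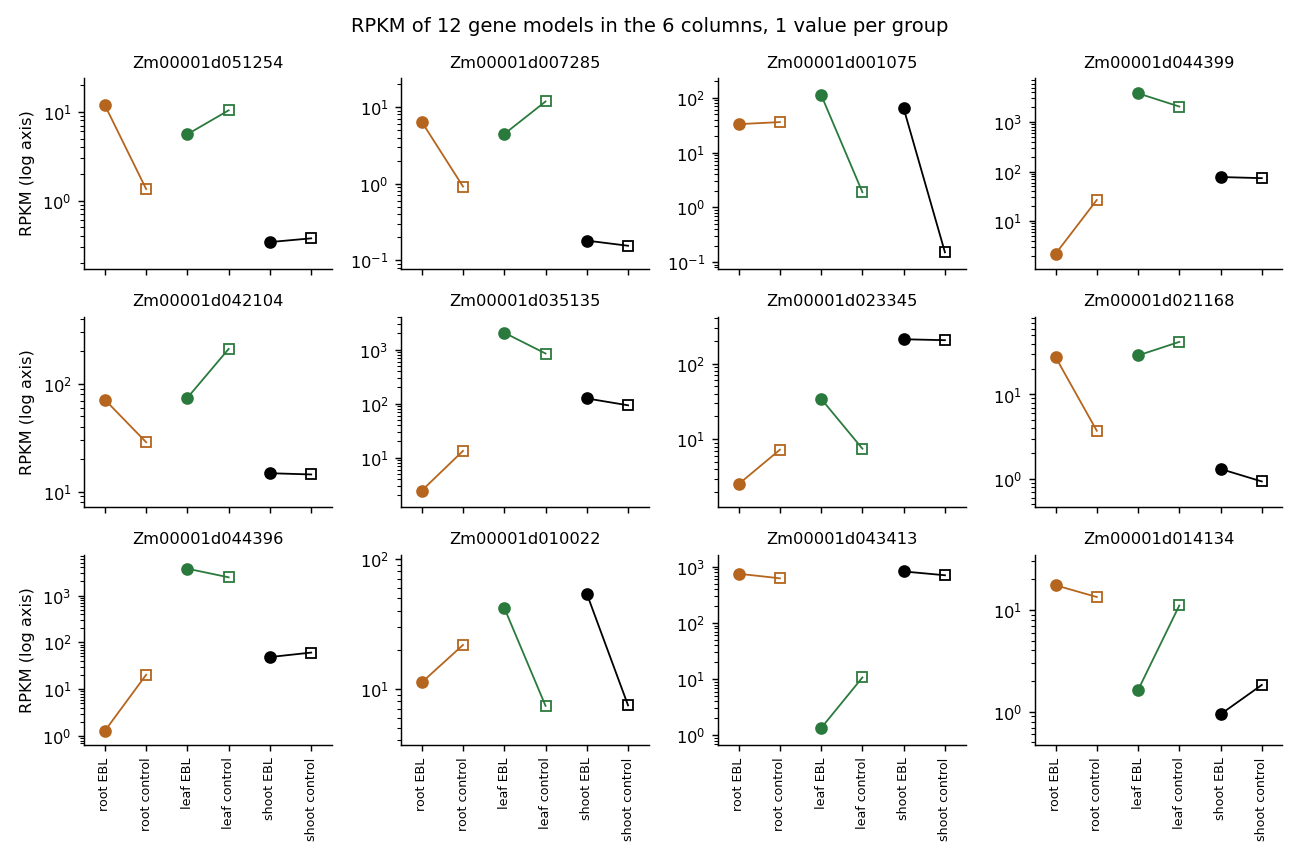
RPKM (log axes, each panel with its own range) of 12 gene models in the 6 columns, with EBL as filled circles and control as open squares, 1 value per group and no error bars. Roots are brown, leaves green and shoots black. In Zm00001d044399, Zm00001d044396 and Zm00001d035135 the control root value lies above the EBL root value while both leaf values are far higher.

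The root levels of the leaf-enriched members were a small percentage of their leaf levels. For the 364 with the higher leaf effect, the root value was a median of 0.310% of the leaf value in EBL seedlings, with quartiles of 0.137 and 1.18%, and 1.29% in control seedlings, with quartiles of 0.913 and 3.58%. Of the 291 members with the higher leaf effect whose EBL root value was lower by 2-fold or more, 162 were at least 8-fold higher in leaves than in roots (55.7%). In these 162 the root value was a median of 0.146% of the leaf value in EBL seedlings, with quartiles of 0.102 and 0.241%, and 1.02% in control seedlings, with quartiles of 0.862 and 1.23%. These control percentages lay closer together than those of the 364. The 364 and the 162 were picked on the same root and leaf values. A lower percentage with EBL than in control therefore follows almost wholly from the rule, and is no separate result. The choice also limits the percentages that the 162 can take. How far that choice narrows them was not tested. The shoot value of the same gene models was 7.91% of the leaf value in EBL and 9.98% in control seedlings, with quartiles of 5.36 and 11.5% and of 6.40 and 14.0%. Over all 1378 leaf-enriched gene models, the root value was 2.02% of the leaf value in EBL and 2.90% in control seedlings. The EBL percentage was the lower one for 1091. Their median effect was -0.17 in roots and 0.24 in leaves, so the leaf values moved as well as the root values. The leaf columns had unequal sums, and the percentages were not recomputed under another scaling. Whether leaf RNA in the control root material had a part in the differences between EBL and control percentages was not tested. In bulk samples fewer cells of a type and less RNA per cell cannot be told apart.

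**Figure D3:**
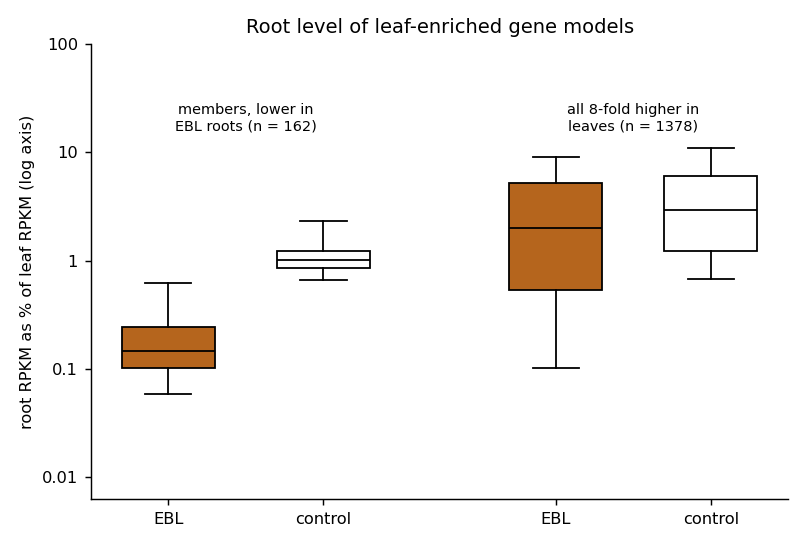
Root RPKM as a percentage of leaf RPKM (log axis) for the 162 leaf-enriched members that were lower in EBL roots and for all 1378 leaf-enriched gene models. Boxes show the median and quartiles, whiskers the 5th and 95th percentiles over gene models, filled for EBL and open for control. The 162 members have medians of 0.146% for EBL and 1.02% for control, a difference that the choice of members builds in.

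For 104 of the 291 members lower in EBL roots (35.7%) leaves and roots were by definition within 8-fold of each other. Those in neither the 162 nor the 104 were at least 8-fold higher in roots. The 104 within 8-fold had a median of 4.28 RPKM in EBL roots and 13.6 in control roots. In leaves their median was 9.81 with EBL and 7.85 in control. Without any gene model that was 8-fold apart between leaves and roots, a setting added after the values were seen, the higher effect lay in roots for 370 and in leaves for 1129. So 91.6% of the members with the higher root effect and 72% of those with the higher leaf effect had levels within 8-fold in the 2 organs.

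Among the 404 members with the higher root effect, both effects were under 2-fold in 206 (51%), where the rule requires opposite signs. In 119 (29.5%) the value was at least 2-fold lower in EBL leaves while roots stayed under 2-fold, and in 68 (16.8%) it was at least 2-fold higher in EBL roots while leaves stayed under 2-fold. Over all gene models compared, 0.438% stood higher by 2-fold or more in EBL roots and 0.79% stood lower by 2-fold or more in EBL leaves. Organ-enriched transcripts made up about the same share as elsewhere. Of the 404, 17 were at least 8-fold higher in leaves and 17 at least 8-fold higher in roots, each 4.21%, against 4.75% and 3.91% of all gene models compared.

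The 68 members higher in EBL roots had a median of 11.3 RPKM in EBL roots and 3.37 in control roots, and 2.69 in EBL leaves and 3.82 in control leaves. Their shoot medians were lower than either, at 0.593 RPKM in EBL and 0.897 in control. Zm00001d051254 had a difference of 3.25 (root minus leaf, log2), from 11.9 RPKM in EBL roots and 1.35 in control roots and 5.58 in EBL leaves and 10.4 in control leaves. Zm00001d021168 stood at 27.8 RPKM in EBL roots and 3.72 in control roots, and at 29.0 in EBL leaves and 41.9 in control leaves. In both, the root value without EBL was well below the leaf value and with EBL was close to it or above it. Both were low in shoots: Zm00001d051254 stood at 0.341 RPKM in EBL shoots and 0.375 in control shoots.

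The 119 members lower in EBL leaves had nearly equal root medians, of 6.59 RPKM in EBL roots and 6.39 in control roots, beside 3.03 in EBL leaves and 9.11 in control leaves. Zm00001d043413 stood at 754 RPKM in EBL roots and 626 in control roots, and at 1.34 in EBL leaves and 10.7 in control leaves. It was as abundant in shoots, at 829 RPKM in EBL and 709 in control. Zm00001d014134 stood at 17.5 RPKM in EBL roots and 13.4 in control roots, and at 1.63 in EBL leaves and 11.1 in control leaves. The first of these was a root and shoot transcript at a low level in leaves, whereas the second had similar levels in control roots and control leaves.

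Opposite responses past 2-fold in both organs were few, as were effects past 2-fold in 1 organ. Of the 29003 gene models compared, 127 were higher by 2-fold or more in EBL roots. Lower by 2-fold or more in EBL leaves were 229. In 8 gene models the value was higher in EBL roots and lower in EBL leaves, by 2-fold or more each time. Zm00001d007285 stood at 6.42 RPKM in EBL roots and 0.916 in control roots, and at 4.45 in EBL leaves and 11.8 in control leaves. Zm00001d042104 was more abundant, at 71.2 RPKM in EBL roots and 28.7 in control roots, and at 74.2 in EBL leaves and 211 in control leaves. In both, the EBL values of roots and leaves were within 1.5-fold, while in control seedlings the leaf value was well above the root value. In shoots both were nearly level, Zm00001d042104 at 14.8 RPKM in EBL and 14.4 in control.

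The reverse, lower in EBL roots and higher in EBL leaves, was found in 19. Of the 29003 gene models compared, 384 were lower by 2-fold or more in EBL roots and 1194 higher in EBL leaves. Zm00001d035135 stood at 2.43 RPKM in EBL roots and 13.3 in control roots, and at 2062 in EBL leaves and 849 in control leaves. Zm00001d023345 stood at 2.54 RPKM in EBL roots and 7.26 in control roots, and at 34.2 in EBL leaves and 7.48 in control leaves, with 210 RPKM in EBL shoots and 204 in control shoots. Of the 19, 11 were at least 8-fold higher in leaves than in roots, and without gene models 8-fold apart between the organs the count was 6. The balance between the 8 and the 19 depended on the scaling. It was 16 and 7 after scaling to the same sum, 9 and 8 after quantile normalization, and 8 and 20 after median-ratio scaling.

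A few members passed 2-fold in the same direction in both organs and differed in size, and they are named because they are the whole of each count. Higher with EBL in both, with the larger effect in roots, were Zm00001d027192, Zm00001d043049 and Zm00001d053937. Of these Zm00001d053937 had the highest levels in roots, at 119 RPKM in EBL roots and 21.7 in control roots, and stood at 297 in EBL leaves and 130 in control leaves. The effect was larger in leaves for Zm00001d012535, at 2.53 RPKM in EBL roots and 0.722 in control roots, and at 195 in EBL leaves and 44.5 in control leaves. Zm00001d022032 was lower with EBL in both, at 5.18 RPKM in EBL roots and 27.6 in control roots, and at 21.5 in EBL leaves and 47.4 in control leaves.

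The share of members varied with the level of the transcript, mainly on the leaf side. The level is a mean of the same values that chose the members. A high EBL leaf value therefore raises both the level and the leaf effect, and how far this shapes the shares was not tested. At a mean over the 4 root and leaf columns of more than 200 RPKM, the higher effect lay in roots for 7 of 812 gene models, or 0.862%, and in leaves for 222, or 27.3%. Between 15 and 50 RPKM the shares were 1.05% for roots and 5.39% for leaves. The most abundant gene models had a median effect of -0.08 in roots and 0.37 in leaves. After scaling to the same sum, 2.09% of the most abundant had the higher root effect and 19.8% the higher leaf effect. Between 1 and 50 RPKM the order turned round under that scaling, with 3.48% or more in each bin having the higher root effect and 2.77% or less the higher leaf effect. Above 50 RPKM more gene models had the higher leaf effect under both scalings.

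**Figure D4:**
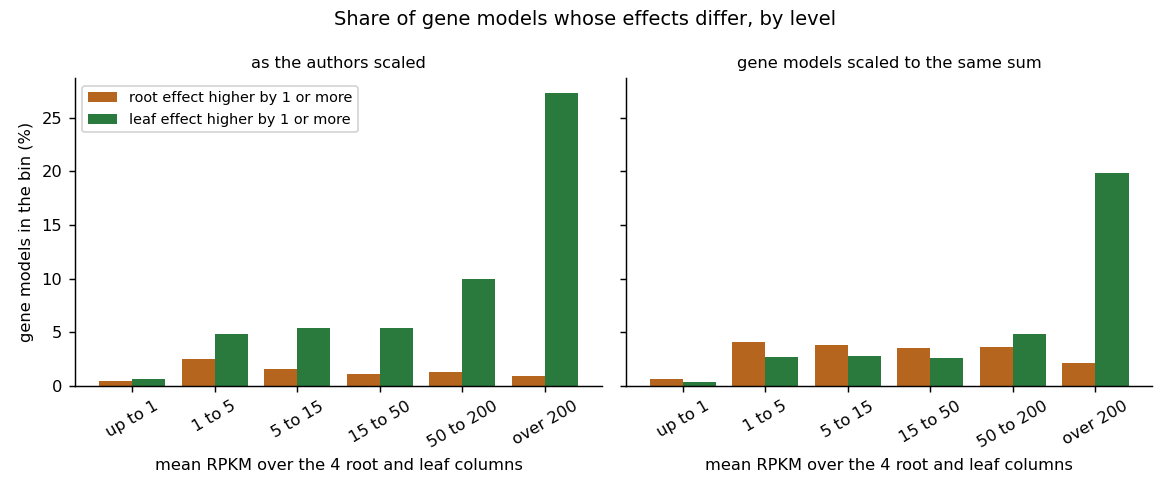
Percentage of gene models whose effects differ by 1 or more (vertical axis) in 6 bins of mean RPKM (horizontal axis), with the higher effect in roots (brown) or in leaves (green). The left panel uses the values as the authors scaled them, and the right panel the values after scaling the gene models to the same sum. The green bar of the highest bin stands at 27.3% on the left and 19.8% on the right.

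The EBL effect in shoots was not used to choose the members and comes from separate libraries. Of the 404 members with the higher root effect, 379 had both shoot values above 0, and 277 of them (73.1%) were lower in EBL shoots, against 47.1% of all 28368 gene models with shoot values. Their median shoot effect was -0.18, against 0.01 over all. Of the members with the higher leaf effect, 1535 had shoot values and 969 (63.1%) were higher in EBL shoots, against 52.9% over all, with a median of 0.12. By sign, the shoot effects were thus more often on the side of the leaf effect than over all gene models. The shoot effect was closer in size to the leaf than to the root effect for 209 of the 379 members with the higher root effect (55.1%). It was so for 493 of the 1535 with the higher leaf effect (32.1%), against 42.3% over all. These shares cannot show likeness, since shoot effects were mostly near 0, with quartiles of -0.10 and 0.14 over all. The organ with the smaller effect is then the nearer one. The share was 93.4% (higher) and 93% (lower) where only roots passed 2-fold. Where only leaves did, it was 7.99% (higher) and 17.4% (lower). Genes are not independent replicates. Under scaling to the same sum the medians were -0.23 for members with the higher root effect and 0.0052 for those with the higher leaf effect, against -0.06 over all.

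By pattern, the members lower in EBL leaves with roots under 2-fold had a median shoot effect of -0.22, with 87 of 115 lower (75.7%). Those higher in EBL leaves with roots under 2-fold had a median of 0.18, with 584 of 814 higher (71.7%). The members higher in EBL roots with leaves under 2-fold had a median shoot effect of -0.17, with 45 of 61 lower (73.8%). For those lower in EBL roots with leaves under 2-fold it was -0.04, with 139 of 257 lower (54.1%). Effects past 2-fold in shoots were few. Of the 379 members with the higher root effect, 10 stood lower in EBL shoots by 2-fold or more (2.64%), against 0.363% over all, and 0 stood higher. Of the 1535 with the higher leaf effect, 7 stood higher in EBL shoots by 2-fold or more (0.456%), against 0.0705% over all, and 18 stood lower (1.17%), against 0.363% over all.

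**Figure D5:**
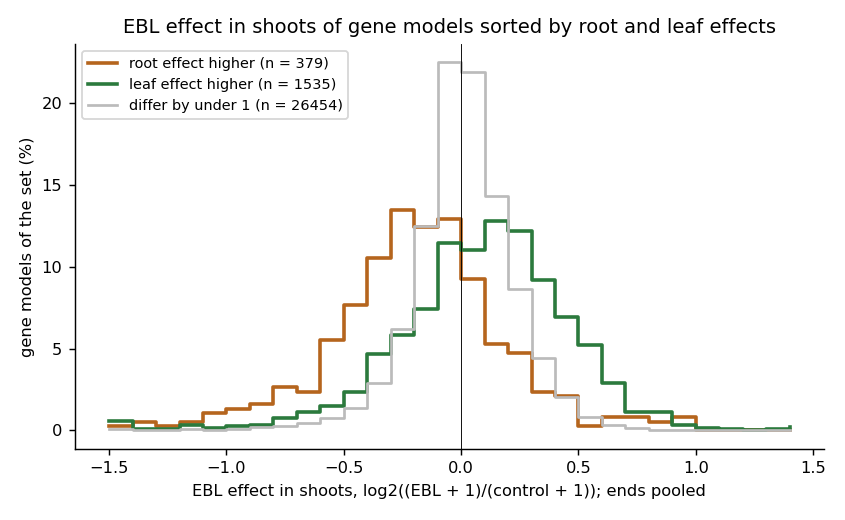
Distribution of the EBL effect in shoots (horizontal axis, log2, with values beyond 1.4 in size pooled in the end bins) as a percentage of each set (vertical axis). The brown line shows the 379 members with the higher root effect, centred left of 0 at a median of -0.18. The green line shows the 1535 with the higher leaf effect, centred right of 0 at 0.12, and the grey line the gene models that differed by under 1.

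Some members carried neighbouring identifier numbers. Of the 404 with the higher root effect, 36 (8.91%) had a member of the same direction at the next higher or lower number, against 1.62% of all gene models compared. For the higher leaf effect it was 138 of 1568 (8.8%), near the 6.46% of all gene models compared. The longest run with the higher leaf effect was 4 identifiers, Zm00001d018628 to Zm00001d018631, and no run with the higher root effect exceeded 2. Positions were not used here, and how the authors counted reads shared by similar gene models is not stated in the labels.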

How the data were processed

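Expression was measured by RNA sequencing of polyA RNA, from libraries made with a stranded TruSeq kit, per the labels' protocols. The authors deposited a single table of RPKM values, whose 6 columns are named for an organ and a treatment. How replicates were combined is not stated in the labels or the table. The submitters' processing notes name, without roles, Trimmomatic 0.33, TopHat2 2.0.13, CASAVA 1.8, Cufflinks 2.2.1 and the genome build B73 RefGen_v4.

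From these values the log2 effect of EBL in each organ was computed with a pseudocount of 1, which understates changes at low values. Gene models with a 0 in any of the 4 root and leaf columns were left out, since a listed 0 may stand for an estimate that failed. The members, the gene lists and the organ-enriched sets (8-fold) were chosen with earlier results of these data known. Identifiers are mainly the 2 with the largest difference in each direction and in each pattern where 1 or both organs passed 2-fold. They were taken among members with a mean of at least 5 RPKM and at least 0.5 in each of the 4 columns. These minimums were met by 213 members with the higher root effect and 1121 with the higher leaf effect. Gene models next to the limit, at the ends of a run or with a listed 0 were named without these minimums. So were those past 2-fold in the same direction in both organs. The rule was run on simulated columns, with differences planted in gene models of at least 5 RPKM in control roots and control leaves. The simulated noise was narrower than the spread of the measured effects. The simulation therefore cannot show how often noise alone passes the rule in these data. Computations used Python 3.11.15, numpy 2.4.6, pandas 2.3.3 and matplotlib 3.10.9.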

Additional observations from a re-analysis of the deposited data

Results flagged for a closer look

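Of the 29003 gene models compared, 8 passed 2-fold in both organs, higher in EBL roots and lower in EBL leaves. The reverse, lower in EBL roots and higher in EBL leaves, held for 19. By single organ, 127 were higher and 384 lower in EBL roots, and 1194 higher and 229 lower in EBL leaves. The scaling changed the numbers of opposed gene models. The counts were 16 and 7 after scaling to the same sum, 9 and 8 after quantile normalization, and 8 and 20 after median-ratio scaling. These differences between organs were not tested.

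Gene models left out of the comparison include 3 with 5 RPKM or more in EBL roots and a listed 0 in control roots, and 6 with 5 RPKM or more in EBL leaves and a listed 0 in control leaves. The reverse, a listed 0 with EBL and 5 RPKM or more in control, held for 5 in roots and 9 in leaves. Zm00001d046170 was at 2.81 RPKM in EBL roots and 58.2 in control roots, and at 3954 in EBL leaves with a listed 0 in control leaves. Zm00001d010263, with a listed 0 in EBL leaves and 121 RPKM in control leaves, was at 145 in EBL roots and 112 in control roots. These identifiers were chosen after their values were seen.

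Among miRNA genes, which were not part of the comparison, root and leaf effects differed by 1 or more for 6 of the 17 with a mean of at least 5 RPKM.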

How the results depend on the processing

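As reported, 404 gene models had the higher root effect and 1568 the higher leaf effect, with 8 and 19 opposed past 2-fold and the leaf effect larger in size in 71.5% of members. With a pseudocount of 0.1 these were 1324, 2603, 43, 65 and 67.5%. A pseudocount of 2 gave 225 with the higher root effect and 3 and 8 opposed. A mean of at least 5 RPKM gave 224 and 3 opposed (higher in EBL roots). Scaling to the same sum gave 912, 846, 16, 7 and 69.1%, with a median shoot effect of 0.0052 for members with the higher leaf effect. Median-ratio scaling gave 78.0% and quantile normalization 8 opposed (lower in EBL roots). Of the settings added after the values were seen, keeping values listed at 0 gave 18 opposed (higher in EBL roots), at least 0.5 RPKM in each column gave 4 of these and 73.7%, and leaving out gene models 8-fold apart between the organs gave 6 opposed (lower in EBL roots) and 78.0%. The cause was not tested. Of 146 recomputed differences of 15 identifiers, 144 stayed at 1 or more in size, 2 were below it, both of Zm00001d022032 (-0.97 with a pseudocount of 2 and -0.80 with the same sum), and 0 changed sign. The planned counts by gene list were not run. No paired analysis was possible because each group has a single value in the table. The depth is unknown, so the number of reads behind a value is too.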

Other observations

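The miRNA genes carry names in the table, and a polyA library reads their primary transcripts rather than the short mature forms. The root effect was the higher one for MIR156d, whose family targets SPL transcription factors, at 7.90 RPKM in EBL roots and 3.42 in control roots, and at 54.9 in EBL leaves and 59.2 in control leaves. It was also the higher one for MIR397a, of a family that targets laccases, at 14.8 RPKM in EBL roots and 6.39 in control roots, and at 73.8 in EBL leaves and 76.3 in control leaves. Both had higher levels in leaves than in roots, and stood higher with EBL in roots alone. The leaf effect was the higher one for MIR169c, of a family that acts on NF-YA transcription factors, at 6.06 RPKM in EBL roots and 16.7 in control roots, and at 133 in EBL leaves and 116 in control leaves. For MIR168a, whose family targets ARGONAUTE genes, the values were 14.9 and 13.3 RPKM in EBL and control roots, and 11.2 and 3.83 in EBL and control leaves. The difference of MIR393b lay mainly in roots, at 5.14 RPKM in EBL roots and 16.1 in control roots, with leaf values near 0, of 0.189 RPKM in EBL leaves and 0.0374 in control leaves. MIR396e stood at 28.1 RPKM in EBL roots and 8.10 in control roots, and at 10.1 in EBL leaves, and its difference rested on a control leaf value near 0, of 0.000181 RPKM.

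By class, root and leaf effects differed by 1 or more for 35.3% of 17 miRNA genes, 37.5% of 216 ENSRNA features and 8.35% of 17540 gene models with a mean of at least 5 RPKM. No test compared the classes, and the reads behind a value may be fewer in some of them.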
